A study of Mus musculus with 17 samples.

Results

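The genes encoding voltage-gated sodium channels (symbols Scn with a number and a or b) and voltage-gated calcium channels (Cacna1, Cacna2d, Cacnb and Cacng) were taken from the RNA-seq table by their symbols alone, and 36 of the 20328 listed genes matched. All 36 passed edgeR's filter on low counts, so none was lost before testing. They comprised 7 pore-forming sodium subunits, 4 sodium beta subunits, 6 high-voltage and 3 low-voltage calcium alpha1 subunits, 4 alpha2delta subunits, 4 calcium beta subunits and 8 gamma subunits. The scRNA-seq table held 40 such symbols, adding Scn4a, Scn10a, Scn11a and Cacna1f, which were not listed in the RNA-seq table. The CUT&RUN table held 13 regions near 11 of the genes, and the ATAC-seq table held 8 regions near 4 of them.

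RNA-seq was done on mouse brain (2 sham libraries, 1 of the 6-OHDA-induced PD model and 2 of the NDST3-treated PD model), H3K27ac CUT&RUN on 2 libraries per group, ATAC-seq on 1 library per group and scRNA-seq on 1 library of each lesioned group in the deposited table. All mice were wild-type ICR females, lesioned or sham operated at 8 weeks of age. 6-hydroxydopamine (6-OHDA), a toxin taken up by catecholamine neurons, was injected on 1 side into the substantia nigra at 10 µg/µl. The NDST3-treated PD model received 2 µl of NDST3 into the substantia nigra 5 days later. The paper describes an AAV serotype 9 vector with human NDST3 and a lentiviral NDST3 vector. Both have a CMV promoter, which is not restricted to 1 cell type. Which of them these mice received is not stated. The 6-OHDA-induced PD model received saline at that time and not an empty vector, so vector and NDST3 cannot be told apart in these libraries. In separate wild-type mice, the paper compared an AAV vector carrying eGFP with sham. It reported no significant difference in rotation or in the RNA of inflammatory markers. RNA-seq totals ranged from 51003699 to 70533326 counts, with a biological coefficient of variation of 20.3%. Levels are given as CPM (counts scaled to a common library total with edgeR's TMM factors) and, where genes are compared with each other, as TPM, which also corrects for transcript length. The labels do not say whether the replicate libraries came from separate animals, so p-values measure the spread between these libraries only.

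Voltage-gated sodium channels carry the rising phase of the action potential. Each has a large pore-forming subunit (the genes ending in a), joined by small membrane-spanning beta subunits (the genes ending in b) that shape its gating and its place in the membrane. Voltage-gated calcium channels turn depolarization into calcium entry, which drives transmitter release, pacemaking and transcription. Their alpha1 subunit forms the pore, the cytoplasmic beta and extracellular alpha2delta subunits bring it to the membrane, and most proteins of the gamma family (TARPs) serve AMPA-type glutamate receptors as auxiliary subunits. Dopaminergic neurons of the substantia nigra fire as pacemakers and are known for their use of L-type calcium channels.

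Most channel genes had their lowest level in the 6-OHDA library. Tested with edgeR's quasi-likelihood method and adjusted by Benjamini-Hochberg over all 19300 genes, 19 of the 36 genes (52.8%) fell at an adjusted p under 0.05 and 0 rose, whereas 17.1% of all genes tested fell and 18.8% rose. When a 2-fold change and a raw p under 0.05 were asked for instead (the 2-fold rule), 18 fell and 2 (Cacna1s and Cacng6) were higher, against 10.1% lower and 14.4% higher among all genes. The median log2 fold change of the 36 genes was -1.03, and that of all genes tested was 0.00. The 6-OHDA library had the lowest level of the 5 libraries for 30 of the 36 genes (37.9% of all genes) and the highest for 3, Cacna2d4, Cacng4 and Cacng6 (38.9% of all genes). It lay below both sham libraries for 31 genes (44.3% of all genes), and both NDST3-treated libraries lay above it for 30 (42.4% of all genes).

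In the NDST3-treated PD model, 15 of the 36 genes (41.7%) stood above the 6-OHDA library at an adjusted p under 0.05 by edgeR and 0 were lower, beside 9.06% and 6.59% of all genes. By the 2-fold rule 11 were higher and 0 lower (7.3% and 8.37% of all genes). The median log2 fold change was 0.80, against 0.00 for all genes tested. This comparison and the previous one share the single 6-OHDA library, so a deviation of that library would move both in opposite directions. Against sham, 0 of the 36 genes passed the adjusted threshold in the NDST3-treated PD model, as did 0 of all 19300 genes (0% in either direction). At an unadjusted p under 0.05 edgeR gave 5 lower and 2 higher channel genes, a share not counted over all genes. DESeq2 gave 1 lower channel gene by adjusted p, beside 1048 genes called in the whole table. The median log2 difference from sham was -0.21. Both NDST3-treated libraries lay below both sham libraries for 15 of the 36 genes (22.4% of all genes) and above them for 2 (26.5% of all genes).

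The 6-OHDA group has no replicate, and its spread was taken from the replicated groups. These counts depended on single libraries. Leaving out sham replicate 1 or 2 left no gene of the whole table called by edgeR against sham. The calls between the lesioned groups were then lost over the whole table too, channel genes included. The median log2 fold changes of the channel genes against sham were -1.15 and -1.01 in these fits. Leaving out NDST3 replicate 1 likewise removed nearly all calls of the whole table against the 6-OHDA library, unlike leaving out NDST3 replicate 2. The calls of all channel genes were among those lost. The median log2 fold changes from the 6-OHDA library were 0.77 and 0.74 in these fits. Pan-neuronal markers moved with the channel genes. All 10 markers of the neuron list fell against sham, with a median of -1.19 on the log2 scale, and their summed level was 7368 and 8088 CPM in sham, 2769 in the 6-OHDA library and 6447 and 5562 with NDST3. Markers of particular neurons went different ways. The 5 serotonin neuron markers summed to 339 and 166 CPM in sham, 7.18 in the 6-OHDA library and 170 and 132 with NDST3, while the 5 cortical excitatory markers summed to 34.2 and 15.0, then 159, then 6.15 and 113. The 5 hypothalamic markers summed to 2.74 and 9.15 CPM in sham, 171 in the 6-OHDA library and 7.07 and 6.70 with NDST3, with log2 changes of 6.32 for Hcrt and 5.46 for Pmch against sham. The 6 fibroblast markers, all of which rose against sham and were lower with NDST3 by adjusted p, summed to 395 and 237, then 1346, then 215 and 285 CPM. The 10 dopaminergic neuron markers summed to 1131 and 1095 CPM in sham, 223 in the 6-OHDA library and 366 and 345 with NDST3. All 10 of them fell and 4 were higher with NDST3 by edgeR's adjusted p. The 6 choroid plexus markers summed to 1153 CPM in NDST3 replicate 2 and to between 24.0 and 67.5 in the other 4 libraries. The 7 microglia markers tested summed to 380 and 290 CPM in sham, 2303 in the 6-OHDA library and 792 and 1313 with NDST3. In bulk tissue, fewer cells of a type and less RNA per cell cannot be told apart, and the part of these marker differences in the results for the channel genes was not tested.

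**Figure D1:**
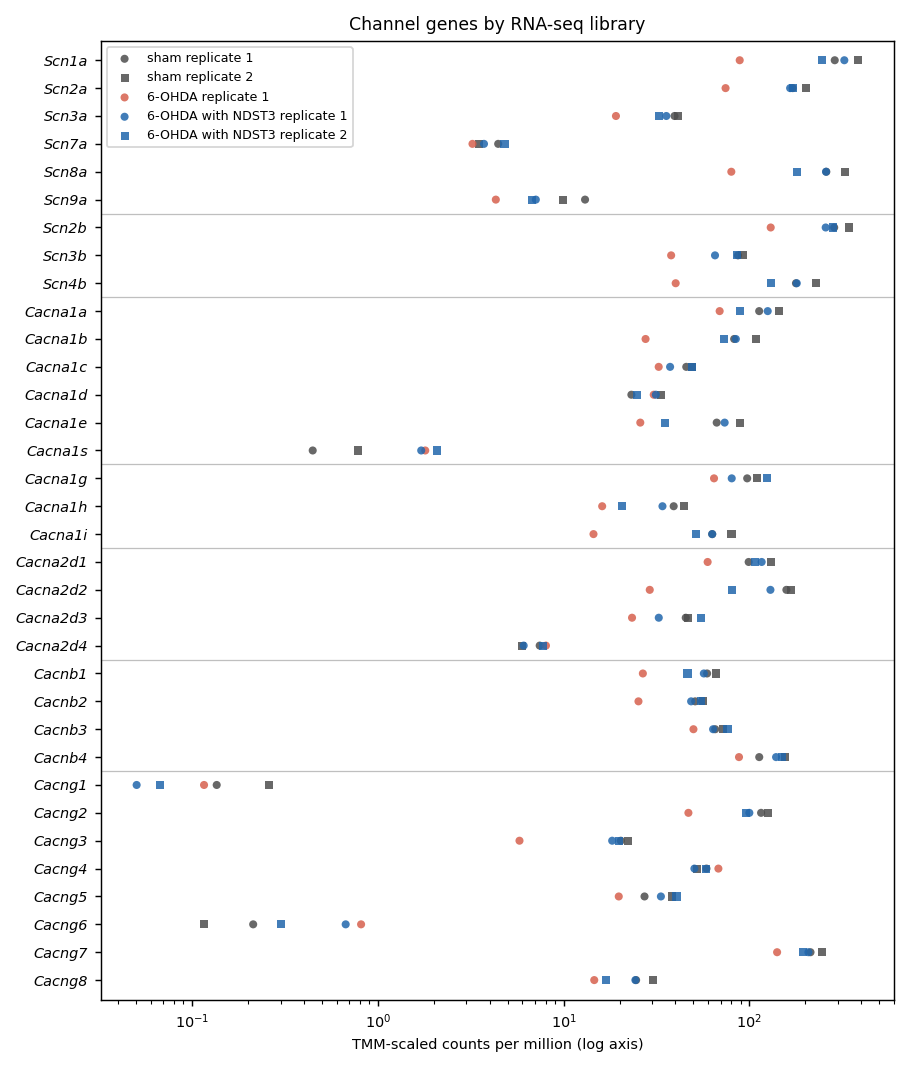
TMM-scaled CPM (log axis) of 34 channel genes in each RNA-seq library, with horizontal lines between subunit classes. Circles are replicate 1 and squares replicate 2. The red 6-OHDA point lies left of the other 4 points for 28 of these genes, and to their right for Cacna2d4, Cacng4 and Cacng6.

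Set against the median neuron marker, 16 of the 36 genes fell further and 20 fell less or rose. Cacna2d2, Scn4b and Cacna1i lay farthest below, by 1.29, 1.16 and 1.12 on the log2 scale. Besides the low-count genes Cacng6 and Cacna1s, the genes farthest above were Cacng4 (1.48), Cacna2d4 (1.45), Cacna1d (1.30) and Scn7a (0.90). These are descriptions of 1 comparison with an unreplicated library, with no test. Whether strand was used in counting is not given in the sources used here, and the annotated loci of Cacnb1 (with Rpl19), Cacna1c (Dcp1b), Cacna1d (Dcp1a and Chdh), Cacna1h (Tpsg1), Cacna2d3 (Lrtm1) and Cacna2d4 (Lrtm2) overlap other named genes, so these counts are less certain.

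**Figure D2:**
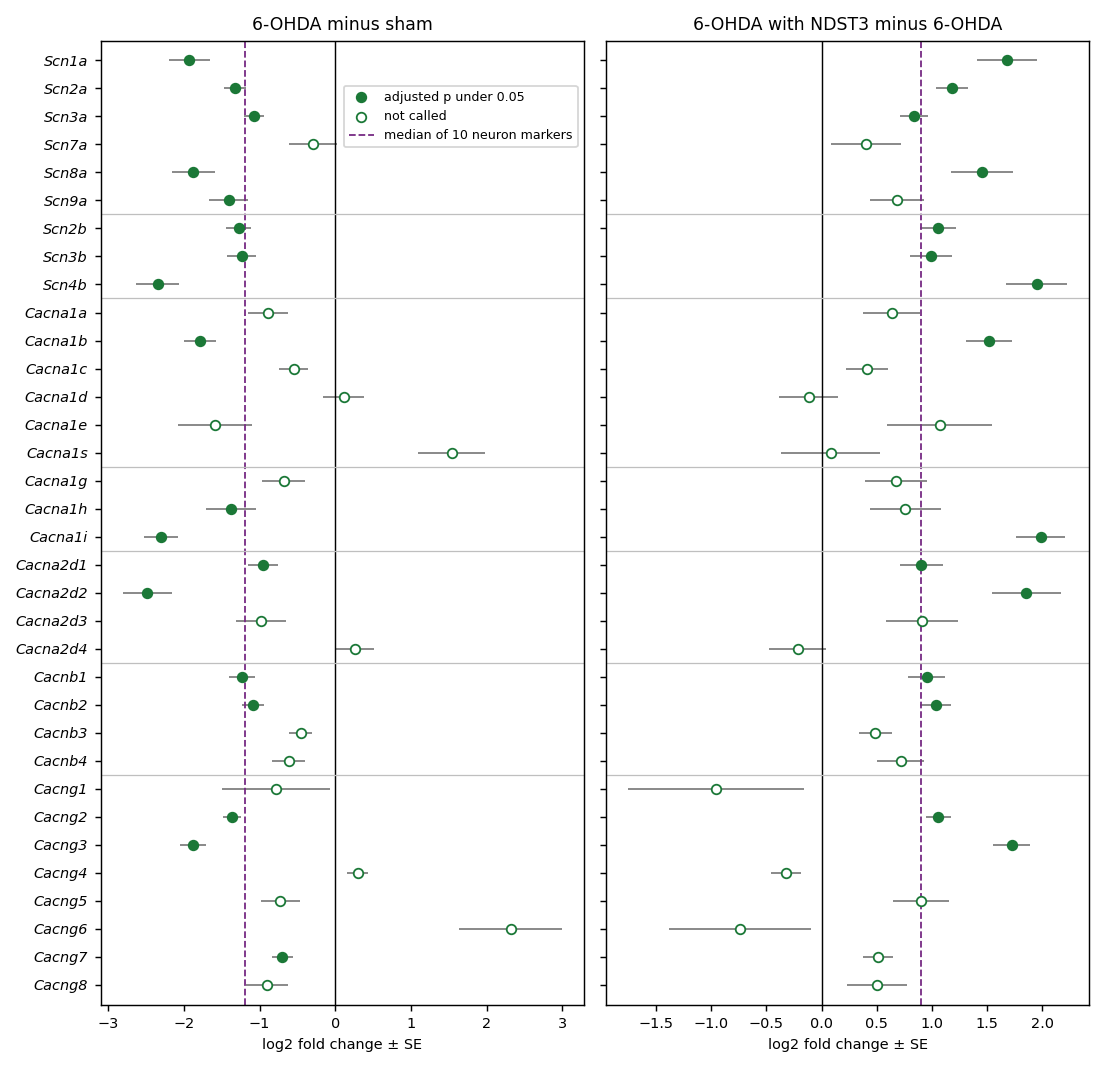
Log2 fold change with its standard error for 34 channel genes, for the 6-OHDA library minus sham (left) and for NDST3 minus the 6-OHDA library (right). Filled points have an adjusted p under 0.05 by edgeR (18 on the left, 15 on the right), and the dashed line is the median of the 10 neuron markers (-1.19 and 0.90). Both panels share the 6-OHDA library.

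Among the pore-forming sodium subunits, Scn1a, Scn2a, Scn3a, Scn8a and Scn9a fell after the lesion, and the first 4 of these were higher with NDST3. In the order Scn3a, Scn2a, Scn1a, Scn9a and Scn7a, 5 of them lie in a cluster with other genes between on chromosome 2 of GRCm38, from 65457118 (the start of Scn3a) to 66784910 (the end of Scn7a). Scn1a, the chief sodium channel of fast-spiking inhibitory neurons, was at 288 and 385 CPM in sham, 88.7 after 6-OHDA and 324 and 245 with NDST3. The 6-OHDA library lay below both groups, which overlapped each other. Scn1a fell by 1.93 ± 0.28 (log2, SE; adjusted p = 0.00996 from edgeR) and was 1.68 ± 0.27 higher with NDST3 (adjusted p = 0.0346). Scn8a, which concentrates at the axon initial segment and nodes of Ranvier, was at 259 and 326 CPM in sham, 79.9 after 6-OHDA and 258 and 180 with NDST3. It fell by 1.87 ± 0.29 (adjusted p = 0.0111 from edgeR) and was 1.45 ± 0.28 higher with NDST3 (adjusted p = 0.0398).

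Scn2a, the sodium channel of developing and excitatory axons, was at 171 and 201 CPM in sham, 74.4 in the 6-OHDA library and 166 and 172 with NDST3. Its fall was 1.32 ± 0.14 (adjusted p = 0.00823 from edgeR) and its difference with NDST3 1.18 ± 0.14 (adjusted p = 0.032). Scn3a, expressed most before birth, was lower throughout, at 39.5 and 41.2, 19.1, and 35.7 and 32.6 CPM. Its log2 changes were -1.08 ± 0.13 and 0.84 ± 0.13 (adjusted p = 0.00863 and 0.0339 from edgeR).

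Scn9a, a channel of sensory and sympathetic neurons, had 13 and 9.89, 4.32, and 7.09 and 6.77 CPM, with both NDST3-treated libraries above the 6-OHDA library and below sham. It fell by 1.41 ± 0.25 (adjusted p = 0.0153 from edgeR), and its difference with NDST3 was 0.68 ± 0.24 (adjusted p = 0.114). Scn7a, an atypical member that responds to the sodium concentration rather than to voltage, was at 4.45 and 3.49, 3.23, and 3.73 and 4.81 CPM and did not pass in either comparison (adjusted p = 0.502 and 0.399 from edgeR).

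Among the sodium beta subunits, Scn2b, Scn3b and Scn4b fell and were higher with NDST3. Scn4b, whose tail acts as an open-channel blocker that gives resurgent current, had the largest change of the 3. Its levels were 178 and 229 CPM in sham, 40.1 in the 6-OHDA library and 180 and 130 with NDST3. The fall was 2.34 ± 0.28 (adjusted p = 0.00859 from edgeR), a 5.08-fold difference, and the difference with NDST3 was 1.95 ± 0.28 (adjusted p = 0.0333). Scn2b and Scn3b, which are linked to or associated with the pore-forming subunit and raise its surface level, fell by 1.27 ± 0.17 and 1.24 ± 0.19 (adjusted p = 0.009 and 0.0113 from edgeR). Scn2b was at 286 and 344 CPM, then 130, then 257 and 282, and Scn3b at 86.8 and 91.8, then 37.9, then 65.3 and 85.4. With NDST3 their differences were 1.05 ± 0.16 and 0.99 ± 0.19 (adjusted p = 0.0339 and 0.0391 from edgeR).

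Per length, Cacng7 had 192 and 218, 116, and 180 and 173 TPM, and Scn2b had 153 and 184, 60.9, and 132 and 149 TPM. Scn4b and Scn1a had mean levels over the 5 libraries of 76.3 and 76.2 TPM, a difference far within their spread between libraries. At the other end, Cacng1 had a mean of 0.242 TPM.

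The make-up of the subunit families in TPM also differed in the 6-OHDA library. The sum of Scn1a, Scn2a, Scn3a and Scn8a was 198 and 248 TPM in sham, 59.7 in the 6-OHDA library and 197 and 164 with NDST3. Scn2a took 23.9% and 22.2% of this sum in sham, 29.9% in the 6-OHDA library and 22.2% and 28.5% with NDST3, so the second NDST3-treated library lay nearer to the 6-OHDA library. Cacna1a took 51.9% and 51.5% of the P/Q-, N- and R-type alpha1 genes in sham, 66.0% in the 6-OHDA library and 54.1% and 52.4% with NDST3. In the alpha2delta family Cacna2d2 took 51.2% and 48.9% in sham, 24.5% in the 6-OHDA library and 47.7% and 31.9% with NDST3. These shares rest on 1 library for the 6-OHDA-induced PD model and were not tested.

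**Figure D3:**
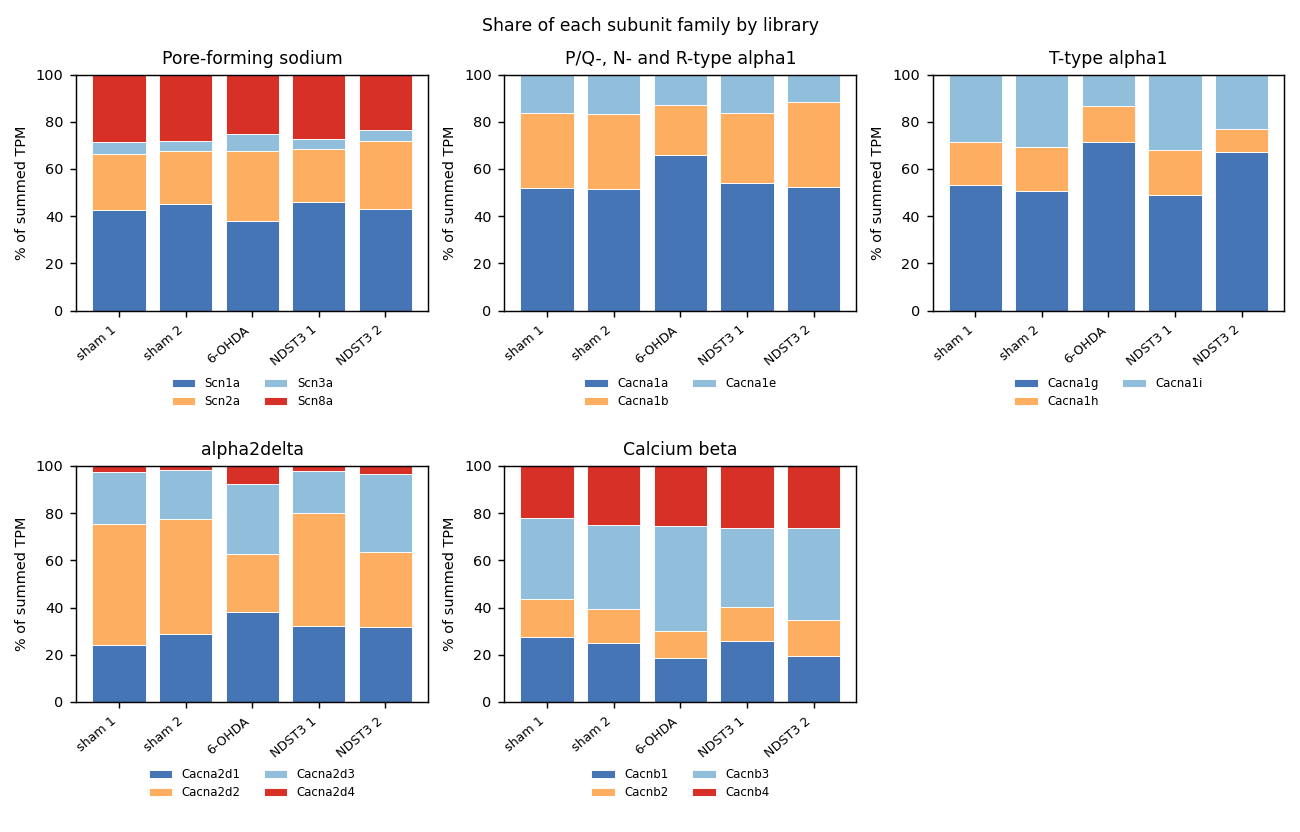
Percentage of the summed TPM that each gene took within 5 subunit families, 1 bar per RNA-seq library. In the 6-OHDA bar the shares of Cacna1i (13.4%) and Cacna2d2 (24.5%) are the lowest of the 5 bars, and that of Cacna1a (66.0%) the highest.

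Of the 6 high-voltage alpha1 subunits, 1 (Cacna1b) passed the adjusted threshold in each comparison with the 6-OHDA library, a share near the 17.1% of all genes called lower against sham. Cacna1b, the N-type channel of presynaptic terminals, was at 82.8 and 108 CPM in sham, 27.6 in the 6-OHDA library and 84.5 and 73.3 with NDST3. It fell by 1.79 ± 0.21 (adjusted p = 0.00847 from edgeR) and was 1.51 ± 0.21 higher with NDST3 (adjusted p = 0.032). Cacna1a, the P/Q-type channel of fast transmitter release, was at 113 and 144 CPM, then 69.1, then 125 and 89.2, a change of -0.89 ± 0.26 that did not pass (adjusted p = 0.0538 from edgeR). Cacna1e, the R-type channel, was at 66.7 and 88.9 CPM, then 25.9, then 73.6 and 34.9. The NDST3-treated libraries differed by more than 2-fold from each other, and the change of -1.59 ± 0.49 against sham passed only the 2-fold rule (adjusted p = 0.0609 from edgeR).

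None of the L-type genes passed the adjusted threshold. Cacna1c, the main L-type channel of brain and heart, was at 45.7 and 49.3 CPM in sham, 32.5 in the 6-OHDA library and 37.4 and 49.1 with NDST3 (log2 change -0.55 ± 0.19, adjusted p = 0.0837 from edgeR). Cacna1d, the L-type channel tied to pacemaking in dopaminergic neurons, was at 23.2 and 33.3, 30.6, and 31.4 and 24.9 CPM, with the 6-OHDA value inside the sham range (0.11 ± 0.27, adjusted p = 0.767 from edgeR). Cacna1s, the pore of the skeletal muscle L-type channel, was near the detection limit with 23 and 54 counts in sham, 93 in the 6-OHDA library and 102 and 125 with NDST3. All 3 lesioned libraries lay above sham, by 1.54 ± 0.45 and 1.62 ± 0.39 on the log2 scale, and neither difference passed the adjusted threshold (adjusted p = 0.052 and 0.2 from edgeR). The 7 skeletal muscle markers tested summed to between 5.43 and 7.16 CPM in every library, but not all were level. Tnni2, a fast-muscle troponin, was at 0.272 and 0.290 CPM in sham, 1.67 in the 6-OHDA library and 0.857 and 1.11 with NDST3 (2.56 on the log2 scale against sham, adjusted p = 0.0113 from edgeR), and Actn3 fell by 1.59 (adjusted p = 0.0319). The part of muscle RNA in the level of Cacna1s was not tested.

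Of the 3 low-voltage (T-type) alpha1 genes, 2 fell and 1 was higher with NDST3. Of all genes 17.1% fell and 9.06% were higher, shares that also stand beside the subunit counts that follow. Cacna1i was at 63.1 and 80.1 CPM in sham, 14.5 in the 6-OHDA library and 63.1 and 51.8 with NDST3. It fell by 2.31 ± 0.23 (adjusted p = 0.00823 from edgeR), 4.94-fold, and was 1.99 ± 0.22 higher with NDST3 (adjusted p = 0.032). Cacna1h was at 39.1 and 44.6, 16.1, and 34.0 and 20.6 CPM, and fell by 1.38 ± 0.33 (adjusted p = 0.0327 from edgeR). Its NDST3-treated libraries spread between the 2 other groups, and the difference of 0.76 ± 0.33 from the 6-OHDA library did not pass (adjusted p = 0.159). Cacna1g, which took between 49.1% and 71.5% of the T-type TPM in each library, was at 97.3 and 109, 64.5, and 80.3 and 125 CPM and did not pass in either comparison.

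Of the alpha2delta subunits, 2 of 4 passed in both comparisons with the 6-OHDA library. Cacna2d2 had the lowest log2 fold change of all 36 genes, -2.48 ± 0.33 (adjusted p = 0.00904 from edgeR), 5.59-fold lower. It was at 158 and 167 CPM in sham, 29.1 in the 6-OHDA library and 130 and 80.5 with NDST3, both NDST3-treated libraries lying above the 6-OHDA library by 1.85 ± 0.31 (adjusted p = 0.0353) and below sham. Cacna2d1, like Cacna2d2 a binding site of gabapentin, was at 99.1 and 131, 59.6, and 116 and 107 CPM. It fell by 0.95 ± 0.20 (adjusted p = 0.022 from edgeR) and was 0.90 ± 0.20 higher with NDST3 (adjusted p = 0.0461). Cacna2d3 changed by -0.98 ± 0.33 without passing (adjusted p = 0.0729 from edgeR). Cacna2d4, which serves photoreceptor terminals, lay between 6.00 and 8.04 CPM in all libraries.

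All 4 cytoplasmic beta subunits were lowest in the 6-OHDA library, and of these Cacnb1 and Cacnb2 passed the adjusted threshold. Cacnb1 was at 59.2 and 65.7, 26.7, and 56.9 and 46.4 CPM, and changed by -1.23 ± 0.17 and 0.95 ± 0.17 (adjusted p = 0.00966 and 0.0365 from edgeR). Cacnb2 was at 51.1 and 56.4, 25.3, and 48.6 and 55.0 CPM, and changed by -1.09 ± 0.14 and 1.03 ± 0.14 (adjusted p = 0.009 and 0.032 from edgeR). For Cacnb3 and Cacnb4 the log2 changes against sham were -0.46 ± 0.15 and -0.61 ± 0.21 (adjusted p = 0.0708 and 0.082 from edgeR). Cacnb4, the beta subunit mutated in the lethargic mouse, was at 113 and 156 CPM in sham, 87.9 in the 6-OHDA library and 139 and 149 with NDST3, where its difference of 0.72 ± 0.22 from the 6-OHDA library did not pass (adjusted p = 0.0807 from edgeR).

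Of the 8 gamma genes, 3 fell and 2 were higher with NDST3, and all of these encode TARPs or TARP relatives that traffic AMPA receptors. Cacng3 was at 20.3 and 22.3 CPM in sham, 5.79 in the 6-OHDA library and 18.3 and 19.9 with NDST3, and changed by -1.88 ± 0.17 and 1.72 ± 0.17 (adjusted p = 0.00823 and 0.032 from edgeR). Cacng2 (stargazin) was at 116 and 126, 47.0, and 99.9 and 95.7 CPM, and changed by -1.36 ± 0.12 and 1.06 ± 0.11 (adjusted p = 0.00823 and 0.032 from edgeR). In both genes the replicates lay close together and the 6-OHDA library far below them. Cacng7 was at 213 and 245, 141, and 208 and 194 CPM and fell by 0.70 ± 0.14 (adjusted p = 0.019 from edgeR), with a difference of 0.51 ± 0.14 with NDST3 (adjusted p = 0.0642). Cacng4 was highest in the 6-OHDA library, at 58.7 and 52.2, 68.1, and 50.6 and 58.3 CPM, and did not pass (0.30 ± 0.14, adjusted p = 0.161 from edgeR). Cacng5 and Cacng8 lay lowest in the 6-OHDA library, at 19.8 and 14.6 CPM against at least 27.3 and 24.6 in sham, without passing (adjusted p = 0.0822 and 0.0581 from edgeR).

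Cacng1, the gamma subunit of skeletal muscle, and its relative Cacng6 were near the detection limit. Cacng6 had 11 and 8 counts in sham, 42 in the 6-OHDA library and 40 and 18 with NDST3, and its log2 difference of 2.32 ± 0.68 from sham passed only the 2-fold rule (adjusted p = 0.0528 from edgeR). Cacng1 had 7 and 18 counts, then 6, then 3 and 4. By the 2-fold rule, the comparison of the NDST3-treated PD model with sham gave 2 lower channel genes and 2 higher (Cacna1s and Cacng6), beside 1.08% and 4.78% of all genes.

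Genes that work with these channels were counted from lists chosen with earlier results of these data known. Of 12 partners of sodium channels at the axon initial segment, 9 fell and 0 rose against sham by edgeR's adjusted p, and 5 were higher with NDST3 (17.1%, 18.8% and 9.06% of all genes, which also stand beside the counts that follow). Those with the lowest raw p were Fgf11, Sptbn4, Cntnap2 and Fgf12, with log2 changes of -1.88, -1.71, -1.80 and -1.15 against sham. Fgf11 and Fgf12 belong to the intracellular FGFs that bind sodium channel tails, and Sptbn4 is the beta-IV spectrin that anchors channels through ankyrin. Of 20 calcium channel partners and regulators, 8 fell and 3 rose, the latter a lower share than among all genes, and 2 were higher with NDST3. The 3 that rose were Rem1 (1.40), Rrad (1.78) and Gem (1.87), small GTPases that restrain high-voltage calcium channels, of which Rem1 and Gem were chosen after their values were seen. Rrad was at 2.35 and 2.68 CPM in sham, 8.66 in the 6-OHDA library and 2.84 and 4.26 with NDST3, and Gem and Rem1 were likewise at a few CPM or less. In the active zone, Rimbp2 and Rims1, which tether calcium channels at release sites, changed by -1.28 and -1.32, and Tspoap1, a relative of Rimbp2, by -0.82. Of 11 AMPA receptor subunits and their other auxiliary proteins, 7 fell, Gria4 by 1.20 and Gsg1l by 1.85, and 4 were higher with NDST3. All 4 tested genes of the sodium leak channel complex fell (Nalcn -1.05, Fam155a -0.92, Unc80 -1.72, Unc79 -1.33) and all 4 were higher with NDST3.

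In scRNA-seq the deposited table gives 1 mean per gene, cluster and library on a natural log scale, for 9 clusters and the 2 lesioned groups, with no replicates and hence no test. The clusters held few neurons by their transcripts. No cluster had more than 2 of the 10 neuron markers above 0.1, and the median over these markers was at most 0.0440 (cluster 2). Of the 40 channel genes, 20 had a mean above 0.1 in at least 1 cluster and 26 a mean above 0.05. These shares over any cluster were not counted for all genes. Cluster 2 was mixed by its markers, with all 8 astrocyte, all 7 oligodendrocyte and all 6 choroid plexus markers above 0.1. There, 7 of 8 microglia and 5 of 6 fibroblast markers were also above 0.1. This cluster held 15 of the 40, beside 36.9% of all genes. Cluster 5, with all 7 mural cell markers above 0.1, held 12 of the 40 (28% of all genes), so in both clusters the channel genes were near the rate of all genes. Cluster 4, with all 8 T cell markers above 0.1, held 0 of the 40, beside 24.4% of all genes.

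Several genes that fell in bulk had little RNA in these clusters. Scn1a, Scn2a, Scn3a, Cacna1b, Cacna1i, Cacng2 and Cacng3 had no mean above 0.1 in any cluster. Nearest to it were Cacna1i in cluster 9 (0.0633 in the 6-OHDA library and 0.0968 with NDST3) and Scn2a in cluster 2 (0.0522 and 0.0713). Scn8a reached 0.128 in cluster 2 and Scn4b 0.172 in cluster 5 as the mean of both libraries. By contrast, Cacna1a was high outside neurons, at 1.85 in the 6-OHDA library and 1.74 with NDST3 in cluster 6, and at 1.31 and 1.30 in cluster 3. All 8 microglia markers were above 0.1 in both of these clusters. Cacna1d was also highest in these clusters, at 0.783 and 0.793 in cluster 6 and 0.599 and 0.607 in cluster 3. The 2 genes differed elsewhere. In cluster 7, with all 7 endothelial markers above 0.1, Cacna1a was at 0.793 and 0.805 but Cacna1d at 0.0732 and 0.054. In cluster 2, Cacna1d was at 0.577 and 0.437. In the mural cell marker cluster 5 the L-type set stood out, Cacna1c at 1.80 and 1.91, Cacnb2 at 1.54 and 1.81, and Cacna2d1 at 1.15 and 1.06. Smooth muscle contraction is known to depend on an L-type channel of this composition. Scn7a (0.203 and 0.183) and Cacna1s (0.233 and 0.204) had their highest means in cluster 2.

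Between the 2 lesioned groups, 2 of the 360 gene and cluster pairs differed by 0.25 or more on the log2 scale. Cacnb2 was 0.39 higher with NDST3 in cluster 5 (0.425% of all gene and cluster pairs were higher by this rule), and Cacna1e was 0.32 lower in cluster 9 (0.497% were lower), where it was at 0.279 in the 6-OHDA library and 0.0582 with NDST3. At a difference of 0.5 none remained (0.0725% of all pairs were higher and 0.0688% lower). Cluster 9 carried all 6 B cell markers above 0.1.

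**Figure D4:**
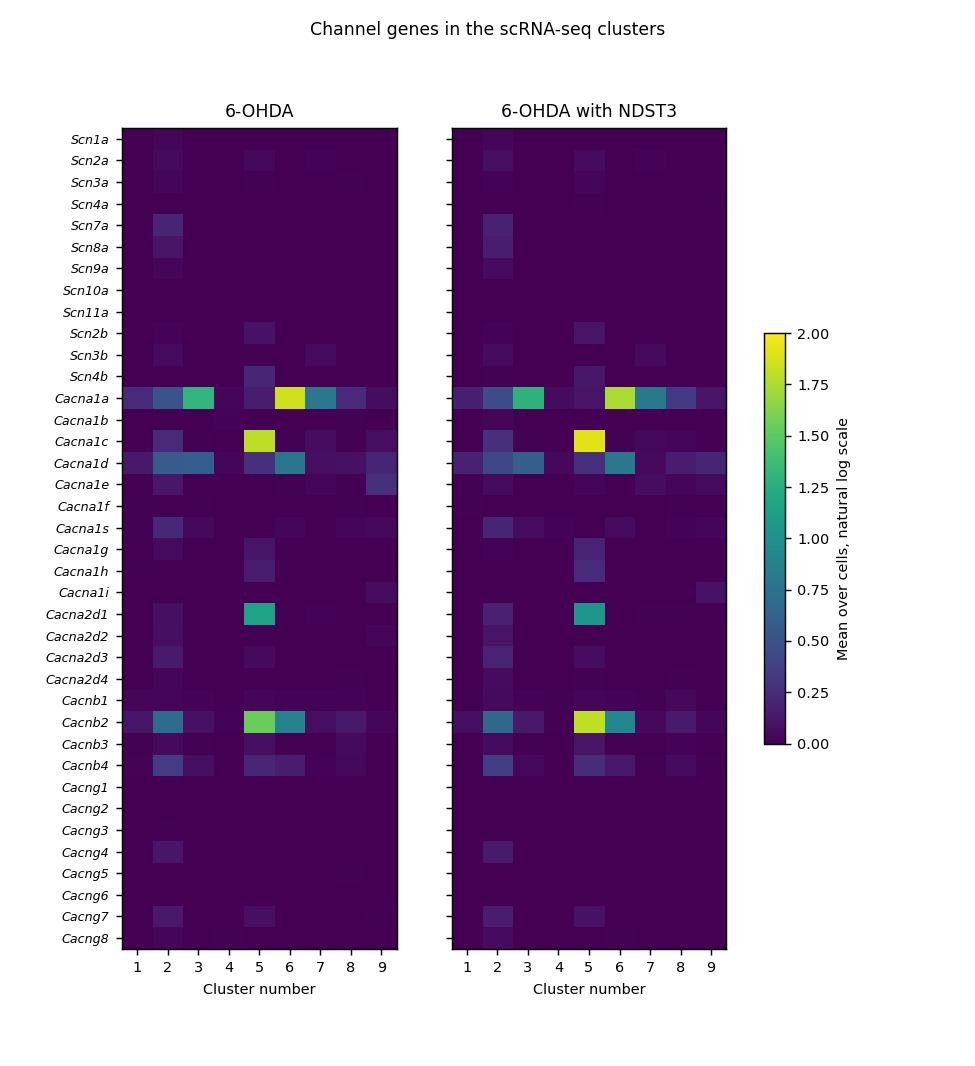
Deposited mean (natural log scale) of 38 channel genes in the 9 scRNA-seq clusters, for the 6-OHDA library (left) and the NDST3-treated library (right). Bright cells mark Cacna1a in clusters 3 and 6 (1.31 and 1.85 on the left) and Cacna1c, Cacna2d1 and Cacnb2 in cluster 5, and the 2 panels look alike.

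H3K27ac, a histone mark of active promoters and enhancers, was given as 1 signal per region and group, pooled over 2 libraries, and ATAC-seq, which reads accessible chromatin, as 1 signal from 1 library per group. Neither allows a test. The labels name mm10, but the regions do not lie at the start sites of that build and the H3K27ac table names a contig of a later mouse assembly, so regions are placed here by their distance to the start site as deposited, and no sequence was read at them. Where a gene had regions at different start sites, the spacing between those sites equalled that between RefSeq start sites on GRCm38 to within 1 base (47917 bases for Scn2a, 117532 for Cacnb4 and 219786 for Cacnb2), which tells the start sites apart.

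The start sites with a region beside them differ widely in sequence. RefSeq promoter windows of GRCm38.p6, from 250 bases before to 50 after the start, matched 26 of the 36 genes with 37 windows. For Scn2a, Scn7a, Cacnb2 and Cacnb4, the genes with an H3K27ac region that doubled or halved between any groups, the 250 bases upstream of each start site with a region are shown 5′ to 3′, with capitals for matches on either strand to the GC box with the letters GGGCGG, the core of the cAMP response element with TGACG, the TATA box with the letters TATAAA and the core of the REST element with CAGCACC. At the upstream start site of Scn2a (chr2:65620519-65620768, plus strand), which had the ATAC-seq region, 29.6% of bases were G or C, with 2 CpG dinucleotides and no match. At its downstream start site (chr2:65668436-65668685, plus strand), which had the H3K27ac region, G and C made up 53.2%, with 9 CpG and a TATA box match at -84.
Scn2a upstream: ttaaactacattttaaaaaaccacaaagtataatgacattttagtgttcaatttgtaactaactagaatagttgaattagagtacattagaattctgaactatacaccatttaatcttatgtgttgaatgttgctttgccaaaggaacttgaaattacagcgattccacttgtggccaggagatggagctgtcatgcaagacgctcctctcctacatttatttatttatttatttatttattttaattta
Scn2a downstream: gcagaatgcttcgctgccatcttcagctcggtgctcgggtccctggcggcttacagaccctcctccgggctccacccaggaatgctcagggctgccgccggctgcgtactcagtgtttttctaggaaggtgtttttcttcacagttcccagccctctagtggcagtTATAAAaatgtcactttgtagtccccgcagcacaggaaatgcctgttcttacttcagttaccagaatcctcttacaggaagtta
At Cacnb2 the upstream start site (chr2:14604056-14604305, plus strand), which had the region listed in both assays, had 73.2% G and C, 30 CpG and a GC box match at -85. The downstream start site (chr2:14823842-14824091, plus strand), which had ATAC-seq regions, had 46% G and C, 3 CpG and a TGACG match at -117.
Cacnb2 upstream: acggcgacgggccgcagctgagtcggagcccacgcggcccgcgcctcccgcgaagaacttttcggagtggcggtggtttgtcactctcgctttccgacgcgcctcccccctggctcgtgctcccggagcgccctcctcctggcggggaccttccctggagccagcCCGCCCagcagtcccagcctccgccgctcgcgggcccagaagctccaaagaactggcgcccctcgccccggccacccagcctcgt
Cacnb2 downstream: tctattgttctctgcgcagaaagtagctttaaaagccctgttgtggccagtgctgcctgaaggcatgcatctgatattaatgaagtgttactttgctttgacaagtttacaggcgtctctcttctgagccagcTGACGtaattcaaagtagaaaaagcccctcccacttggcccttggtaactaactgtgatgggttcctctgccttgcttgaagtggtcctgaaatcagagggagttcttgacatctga
At Cacnb4 the upstream start site (chr2:52676144-52676393, minus strand) had 79.6% G and C, 37 CpG and 6 GC box matches, of which the 2 nearest the start overlap. The downstream start site (chr2:52558612-52558861, minus strand), which had a region in both assays, had 48.8% G and C, 4 CpG and no match.
Cacnb4 upstream: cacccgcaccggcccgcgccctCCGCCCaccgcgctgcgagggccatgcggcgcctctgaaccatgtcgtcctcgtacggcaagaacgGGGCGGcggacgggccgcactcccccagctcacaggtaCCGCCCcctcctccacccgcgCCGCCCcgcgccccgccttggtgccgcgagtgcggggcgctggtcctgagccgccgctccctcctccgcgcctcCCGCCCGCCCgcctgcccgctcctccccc
Cacnb4 downstream: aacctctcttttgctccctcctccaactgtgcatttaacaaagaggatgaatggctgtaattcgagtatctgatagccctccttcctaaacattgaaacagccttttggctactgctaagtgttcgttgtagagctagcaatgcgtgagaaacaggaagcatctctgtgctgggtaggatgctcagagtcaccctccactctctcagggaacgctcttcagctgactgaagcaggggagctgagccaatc
The start site of Scn7a (chr2:66784911-66785160, minus strand) had 53.2% G and C, 3 CpG and 1 GC box match at -126.
Scn7a: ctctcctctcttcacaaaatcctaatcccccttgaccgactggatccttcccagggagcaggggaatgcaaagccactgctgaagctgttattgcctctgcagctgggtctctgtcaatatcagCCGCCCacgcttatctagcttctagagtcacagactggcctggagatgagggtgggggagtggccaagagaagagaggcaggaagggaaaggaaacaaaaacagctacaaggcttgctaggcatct

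Over the 37 whole windows, a GC box was found in 15 (40.5%), beside 35.7% of all 32851 promoter windows. TGACG was found in 5 (13.5%, beside 20.8%), TATAAA in 2 (5.41%, beside 13.6%) and CAGCACC in 0 (beside 7.14%). These matches describe letters in the windows only.

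At the downstream Scn2a start site the H3K27ac signal (region at +11 bp) was 10.3 in sham, 13.4 after 6-OHDA and 31.8 with NDST3, a 2.28-fold ratio between the lesioned groups with a pseudocount of 1. It was the only 1 of 13 regions to double there, beside 11% of all 11424 regions, and none of either set halved (0%). Against sham, the NDST3-treated PD model had double the signal at 3 regions (this one, Scn7a and the upstream one of Cacnb4, beside 25.5% of all regions), and none was halved (0.63%). At the upstream start site, by contrast, ATAC-seq (region at -177 bp) gave 21.2, 26.5 and 22.5. For Scn7a (-48 bp) H3K27ac was 7.41, 14.7 and 19.9, and at the upstream start site of Cacnb4 (-48 bp) 5.89, 13.4 and 16.8, both lowest in sham and highest with NDST3. The Cacnb4 ratio of 2.09 between the 6-OHDA-induced PD model and sham was the only doubling among the 13 regions (7.7% of all regions), and Cacnb2 (-118 bp) was the only 1 to halve, from 13.1 to 5.95 (4.48% of all regions), and 11.4 after NDST3 treatment.

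The genes that fell in RNA did not share 1 course in H3K27ac. The region of Scn1a (+600 bp) had 14.1, 8.45 and 12.9, that of Scn8a (-437 bp) 21.6, 15.4 and 24.8, and that of Scn9a (-23 bp) 20.1, 17.4 and 26.4 in sham, after 6-OHDA and with NDST3. These 3 were lowest after 6-OHDA. The region of Cacna2d1 (-830 bp) had its lowest signal in sham (13.1, 16.4 and 19.9), and those of Cacng7 had 34.7, 24.9 and 32.8 (-803 bp) and 13.6, 17.9 and 17.9 (-229 bp). Of the genes that did not pass against sham in RNA, Cacna1c (-611 bp) had 34.2, 24.4 and 25.8, and the downstream start site of Cacnb4 (+62 bp) 23.5, 28.9 and 33.1. Against the 6-OHDA-induced PD model, 12 of 13 regions had more signal in the NDST3-treated PD model, but so did 96.3% of all regions, and the median ratio of the 13 (1.31) equalled that of all regions (1.31).

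In ATAC-seq the 8 regions lay at Cacnb2, Cacna1c, Cacnb4 and Scn2a, and none doubled or halved between any groups. Of all 3537 regions with 3 values, 6.19% doubled and 6.87% halved between sham and the 6-OHDA-induced PD model, 5.88% and 4.47% between the lesioned groups, and 10% and 7.15% between sham and the NDST3-treated PD model. The 4 regions of Cacnb2 had 34.6, 25.8 and 20.2 (-413 bp), 10.6, 15.8 and 8.64 (-118 bp), 18.8, 11.8 and 15.8 (-196 bp, at the downstream start site), and 15.2, 8 and 9.5 (+76 bp, at the same site) in sham, after 6-OHDA and with NDST3. At -118 bp the same 100-base region was listed in both tables, and its ATAC-seq signal was highest, and its H3K27ac signal lowest, after 6-OHDA. Cacnb4 (-52 bp) gave 15.2, 11.5 and 10. Cacna1c gave 5.4, 3 and 3.5 at +48 bp and 13.6, 14.3 and 22.2 at -476 bp. The median ratio of the 6-OHDA-induced PD model to sham was 0.751 over the 8 regions and 1.08 over all regions with values in these groups, and that of the NDST3-treated to the 6-OHDA-induced PD model was 1.02 and 1.08.

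**Figure D5:**
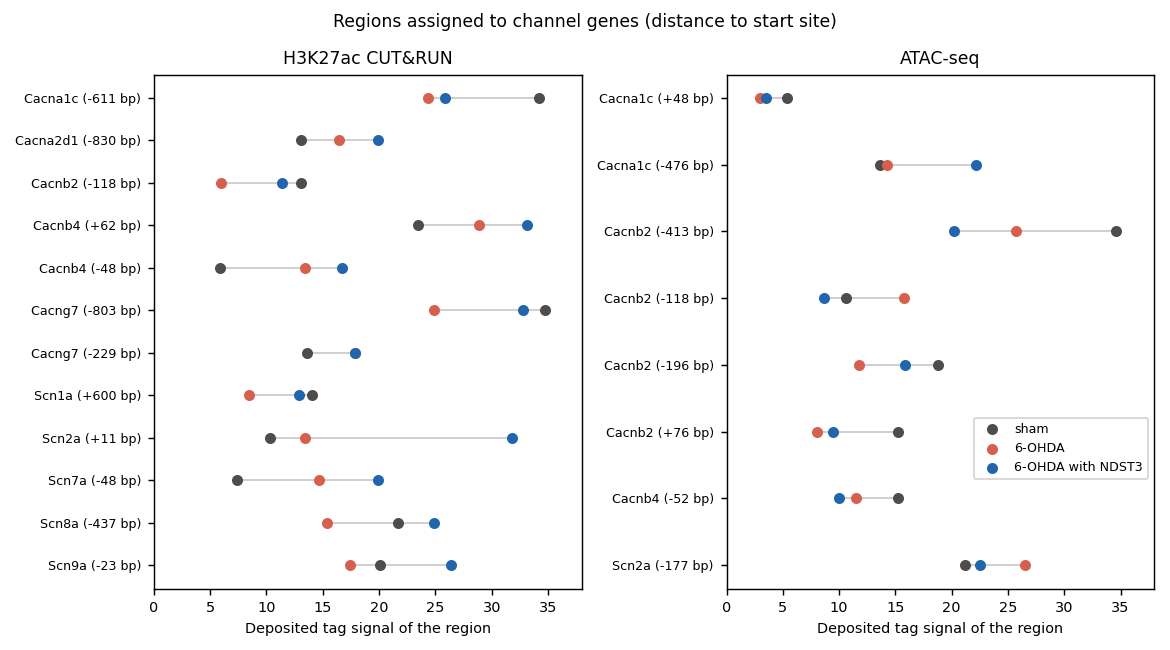
Deposited signal of 12 H3K27ac CUT&RUN regions (left, 2 libraries pooled per group) and the 8 ATAC-seq regions (right, 1 library per group) assigned to channel genes, labelled by distance to the start site in bp. Scn2a at +11 bp has the widest gap between the lesioned groups (13.4 and 31.8), and at Cacng7 -229 bp their points coincide (17.9).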

How the data were processed

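The channel genes were selected by symbol, and these genes and every partner and marker list were chosen with earlier results of these data known. RNA-seq read counts, FPKM and TPM were used as deposited by the authors, who made them with Trimmomatic for trimming, HISAT2 for alignment to the mm10 build and StringTie for quantification. Counts were fitted over all 5 libraries with edgeR 4.0.16 in R 4.3.3 (TMM, filterByExpr, quasi-likelihood test with 2 residual degrees of freedom, SE from the F statistic). A gene was called at an adjusted p under 0.05, and a 2-fold change with a raw p under 0.05 (the 2-fold rule) was also counted. The alternatives included limma 3.58.1 on log2-transformed FPKM and DESeq2 1.42.0. Scripts were tested on simulated data. Total counts per library ranged from 51003699 to 70533326, so counting error mattered only for genes with few counts.

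The deposited scRNA-seq values are cluster means that the authors made from counts normalised per cell on a natural log scale. They were compared on the log2 scale at a difference of 0.25, and a mean above 0.1 in either library was counted as detected. The deposited H3K27ac CUT&RUN and ATAC-seq signals are tag values per region, whose normalisation is not given in the sources used here. CUT&RUN ratios were taken after adding 1, and ATAC-seq ratios without a pseudocount. Neither depth nor replicate error can be had from these columns. Promoter sequences came from RefSeq (GRCm38.p6). 2 of the 36 genes are counted but not reported here individually. Named genes were the other members, plus up to 4 partner genes with the lowest raw p in each list, and Rem1 and Gem, added after their values were seen. Annotated loci were read for overlaps.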

Additional observations from a re-analysis of the deposited data

How the results depend on the processing

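All 19 genes called lower against sham and all 15 called higher with NDST3 kept their direction in every alternative run. Against sham, DESeq2 called 29 channel genes at an adjusted p under 0.05, beside 7503 genes of the whole table (6916 in the main fit). The channel gene count ranged from 20 to 28 under the other normalisation, filters, threshold, limma and the fit of the 2 groups alone. That last fit gave the 28, beside 7106 genes of the whole table. Calls depended on which library was left out, as given above. The median log2 fold change of the channel genes against sham lay between -1.15 and -1.01 in those fits. Between the lesioned groups the channel gene count was 0 when the 2 groups were fitted alone, beside 0 genes of the whole table. In that fit 18 channel genes had an unadjusted p under 0.05, a share not counted over all genes. The count was 0 to 16 when 1 library was left out, the 16 beside 3163 genes of the whole table. In the fits that gave 0, at most 1 gene of the whole table was called, so the loss was not particular to channel genes. For NDST3 against sham, DESeq2 gave 1 channel gene, beside 1048 genes of the whole table, and the 2-fold rule gave 4 channel genes. The replicate numbers pair only 2 groups of 2 libraries, whose deviations had a correlation of -0.34, so they were not taken as pairs. With the replicate block 12 channel genes were called against sham (1796 genes over the whole table) and 0 between the lesioned groups (0 over the whole table). With the crossed pairing, added after seeing the data, the counts were 27, 17 and, for NDST3 against sham, 1. Over the whole table they were 7444, 4795 and 1194. At 0.5 on the log2 scale, 0 scRNA-seq pairs remained in place of 2. Uncalled genes near 0 changed sign. Cacna1d had a log2 difference from sham of -0.13 to 0.40 and between the lesioned groups of -0.29 to 0.0069 when 1 library was left out. For Cacna1s between the lesioned groups it was -0.19 with the replicate block, -0.0016 with the crossed pairing and -0.10 to 0.22 without 1 library. The cause of these changes was not tested. With other pseudocounts every median ratio of the signals stayed on the same side of 1. For example, the ATAC-seq ratio of the NDST3-treated PD model to sham was 0.735 and 0.766. These ratios have no replicates, so no spread was available.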
